A study of Mus musculus with 14 samples.

Results

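The long copies of the young L1 subfamily L1Md_A were followed one by one in mouse germ cells with and without the DNA methyltransferase DNMT3C. A copy was counted as long when the annotation named its subfamily exactly L1Md_A and its end lay at least 5000 bp past its start. This rule took 3304 of the 16844 L1Md_A copies and of 3725827 copies of transposable elements (TEs) in all, and it used no expression value. The 3304 copies were 5000 to 9892 bp long with a median of 5996 bp, so that they came near to a complete element, and 1640 of them reached 6000 bp. They lay on the plus strand 1600 times and on the minus strand 1704 times.

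L1 elements are the autonomous non-LTR retrotransposons of mammals. A complete mouse copy starts with an array of tandem monomers that holds the promoter, carries ORF1 for an RNA-binding protein and ORF2 for an endonuclease and reverse transcriptase, and ends in a poly(A) tail. Most copies in the genome are cut short at the 5′ end and have lost the promoter. In male germ cells the promoters of young L1 are methylated in fetal prospermatogonia by DNMT3C, which is guided by piRNAs of the MIWI2 pathway and assisted by DNMT3L. L1Md_A, L1Md_T and L1Md_Gf are the young subfamilies that still mobilize in mice.

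Polyadenylated RNA had been sequenced with strand information from germ cells sorted from testes of Dnmt3C KO/KO mice (KO) and wild-type littermates (WT), all bred onto C57Bl6/J. Spermatogonia (Spg, 3 KO and 3 WT libraries) were taken at P14 as EpCAM-positive and beta-2-microglobulin-negative cells, and spermatocytes (Spc, 4 KO and 4 WT libraries) by Hoechst staining from animals older than 20 days. Germ cells of KO mice arrest in meiosis, so the KO spermatocyte sort lacks later stages that the WT sort can hold. How many animals stand behind each library is not given in the sources used here, so p-values measure the spread between libraries. The study's figure legends name 3 biological replicates, while 4 Spc libraries per genotype were used here. Whether any of the 4 share a biological source was not determined. The unit of a copy is TPM, reads per length scaled by the authors to 1000000 over TE copies alone, without genes.

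The sequence of long L1Md_A copies could be read only where a copy reached into a gene's start in the RefSeq promoter windows of GRCm38.p6, which was the case for 7 of the 3304. For each, 30 bases with the most CG dinucleotides, the site of DNA methylation, are printed 5′ to 3′ on the strand of the copy with every CG in capitals. Whether DNMT3C methylates these bases was not examined. The 30 bases at chr11:41710335-41710364 (minus strand, in the window of A230004M16Rik), chr6:67009035-67009064 (minus, Gm36816), chr14:100737331-100737360 (plus, Gm46483) and chr2:145242545-145242574 (minus, Slc24a3) read:
L1Md_A_dup12318: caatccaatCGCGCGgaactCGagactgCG
L1Md_A_dup5525: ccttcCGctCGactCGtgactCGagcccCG
L1Md_A_dup14285: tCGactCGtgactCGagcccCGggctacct
L1Md_A_dup2075: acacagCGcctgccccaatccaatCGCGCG
All 4 stretches lay within the first 705 bases of their copies. They shared exact runs of 54 to 73 bases with one another, and each of these runs occurred in only 2 to 4 of the 32851 promoter windows. Within L1Md_A_dup12318 and L1Md_A_dup5525 the stretch matched itself at 97.8% and 96.7% of bases after a shift of 208 bases, and within L1Md_A_dup2075 at 98.99% after 201 bases.

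The stretch of L1Md_A_dup12318 held 19 CG in 300 bases, that of L1Md_A_dup5525 held 15 and that of L1Md_A_dup2075 held 15, against a median of 7 over all windows (quartiles 3 and 20). The stretch of L1Md_A_dup13644 (minus, in the window of Smn1, printed bases chr13:100123148-100123177), bases 426 to 725 of its copy, held 2 CG in 300 bases. The copy L1Md_A_dup7489 (minus, Gm46102, printed bases chr9:9620005-9620034) was covered at its 3′ end and held 2 in 234 bases. The seventh, L1Md_A_dup9795 (plus, Gm36547, printed bases chrX:166824632-166824661), was covered from its first base and held 11 CG in 254 bases. None of these 3 shared a run of over 10 bases with the 4 above, and the best self matches of L1Md_A_dup13644 and L1Md_A_dup9795 were 44.4% and 36.6%. They are printed for comparison, and which part of the element each covers was not determined:
L1Md_A_dup13644: aaacaggtagaagtccttatagaaaaacCG
L1Md_A_dup7489: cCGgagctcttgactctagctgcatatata
L1Md_A_dup9795: CGggagccttcttggctcctggactcCGCG
The NRF1 core GCATGCGC and the CREB1 site TGACGTCA, searched on both strands, stood in none of the 7 stretches and in 2.71% and 1.79% of all windows. The absence of these letters says nothing about binding elsewhere in the copies. L1Md_A_dup5525, which is 9025 bp long, reached 2.48 TPM in KO Spg and 10.3 TPM in KO Spc, and L1Md_A_dup12318 reached 1.102 and 7.90 TPM, while in WT both averaged at most 0.0134 TPM at either stage. L1Md_A_dup2075 stood at 0.280 TPM in KO and 0.153 TPM in WT Spg, and at 2.15 and 0.641 TPM in Spc. L1Md_A_dup13644 stood at 0.336 and 0.246 TPM in Spg and at 2.59 and 0.161 TPM in Spc. In KO Spg and KO Spc L1Md_A_dup14285 had 0.0477 and 1.57 TPM, L1Md_A_dup7489 0.438 and 2.05 TPM and L1Md_A_dup9795 0.0435 and 0.0796 TPM. In WT these 3 averaged at most 0.0310 TPM at either stage.

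In units of 1000000, the total counts per library over genes and TEs lay between 40.6 and 53.3. The count of Dnmt3c itself was not lower in KO, at 1.22 to 2.32 CPM (TMM-scaled counts per 1000000) in KO and 1.15 to 1.87 CPM in WT Spg and at 0.849 to 1.03 and 0.286 to 0.783 CPM in Spc, so it does not check the labels. Spermatogonia markers summed to 1737 to 2195 CPM in KO and 1396 to 1941 CPM in WT Spg. No marker of the 8 cell type lists was called there, where 0.0741% of all genes and TE subfamilies were called in either direction. The meiotic list was nonetheless lower without overlap, at 620 to 992 CPM in KO and 1035 to 2182 CPM in WT Spg, with Piwil1 at 12.9 to 15.8 against 50.6 to 525 CPM and Ldhc at 2.09 to 2.44 against 21.5 to 452 CPM (edgeR adjusted p = 0.0980 and 0.0644). In Spc the 4 spermatid markers summed to 0.121 to 4.66 CPM in KO and 32.6 to 860 CPM in WT, the meiotic list to 803 to 1748 and 6166 to 9935 CPM, and the spermatogonia list to 403 to 977 and 79.7 to 257 CPM. Of the meiotic list Spo11, Piwil1 and Ldhc were called lower. Sycp1, Sycp3 and Hormad1 were not called, at means of 594, 444 and 324 CPM in KO and 506, 458 and 306 CPM in WT. Leydig, peritubular and macrophage markers were higher in KO Spc (3 of 3, 2 of 2 and 2 of 2 called, 26.9 to 183, 6.88 to 111 and 8.83 to 44.0 CPM against 8.04 to 12.1, 1.95 to 6.68 and 1.43 to 2.28 CPM in WT), Sertoli markers summed to 22.0 to 80.8 against 10.1 to 31.7 CPM and erythroid markers to 0.0333 to 6.34 against 0.208 to 0.835 CPM with none called. Of all genes and TE subfamilies tested 27.4% were called higher and 30.1% lower in KO Spc. Replicates 1 and 4 of Spc were closer to each other than any other pair (chi-square per degree of freedom 11.6 in KO and 14.9 in WT, 58.2 to 286 in other pairs), though not within sampling noise. WT Spc replicate 3 stood apart from its group in the values below.

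In spermatogonia the long L1Md_A copies were transcribed far above WT in every KO library. Their summed TPM was 1910, 1200 and 866 in KO Spg, against 47.9, 59.2 and 54.7 in WT Spg. No KO library came near a WT library. The means were 1325 ± 533 and 53.9 ± 5.70 TPM (SD, n = 3 each), a ratio of 24.6 or 4.62 on the log2 scale (two-sided exact permutation test, p = 0.10, the smallest that 3 against 3 allow). The WT Spg sort had the higher meiotic marker level, and its part in the difference was not tested. The long copies took 4.36%, 3.52% and 2.54% of all TE reads in KO Spg and 0.157% to 0.206% in WT Spg.

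In spermatocytes the difference was larger still on this scale. Summed TPM was 8779, 3252, 7139 and 10314 in KO Spc, lowest in replicate 2, and 45.2, 37.4, 127.5 and 47.5 in WT Spc, highest in replicate 3. Even the lowest KO library stood far above the highest WT library. The means of 7371 ± 3037 and 64.4 ± 42.3 TPM (SD, n = 4 each) gave a ratio of 114 (log2 ratio 6.84, two-sided exact permutation test, p = 0.0286, the smallest that 4 against 4 allow). Without WT replicate 3 the log2 ratio was 7.41. With replicates 1 and 4 averaged the log2 ratio was 6.56 (two-sided exact permutation test, p = 0.10, the smallest that this design allows). The long copies held 14.3%, 7.78%, 13.3% and 15.6% of all TE reads in KO Spc, and 0.133%, 0.116%, 0.390% and 0.138% in WT Spc. In sorted bulk cells a smaller share of expressing cells and less RNA per cell cannot be told apart, and the different stage makeup of the KO and WT Spc sorts was not tested as a part of this difference.

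Because TPM was scaled over TE copies alone, the reads behind it were also set against all counts of genes and TEs. They were first multiplied by 1.01 to 1.03 per library, so that all copies together summed to the TE counts of the subfamily table. Long L1Md_A copies gave 1494 ± 519 reads per 1000000 in KO Spg and 57.4 ± 19.13 in WT Spg, a ratio of 26.0, and 10046 ± 3795 and 46.9 ± 45.0 in KO and WT Spc (SD), a ratio of 214. Without that factor the ratios were 26.1 and 216. Without WT Spc replicate 3, which had 114 reads per 1000000, the other WT Spc libraries averaged 24.5 ± 0.205 and the ratio was 411. On this scale KO Spc exceeded KO Spg 6.72-fold, with the lowest KO Spc library at 4466 and the highest KO Spg library at 1914 reads per 1000000 (two-sided exact permutation test, p = 0.0571, the smallest for 3 against 4).

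**Figure D1:**
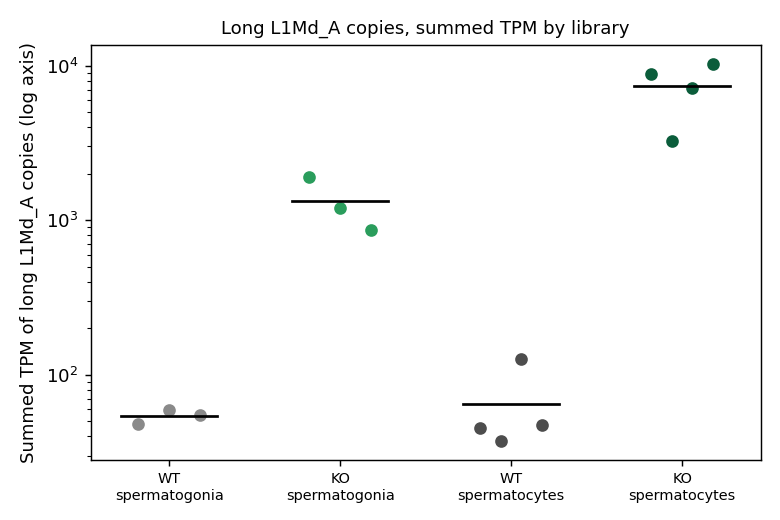
Summed TPM (log axis) of the 3304 long L1Md_A copies in each of the 14 libraries, as points, with the mean of each group as a bar. All KO points lie above all WT points of the same stage, at 866 to 1910 against 47.9 to 59.2 in Spg and 3252 to 10314 against 37.4 to 127.5 in Spc.

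The rise was spread over most of the copies. At least 1 read fell on 2726, 2786 and 2368 of the 3304 copies in the KO Spg libraries and on 416, 751 and 663 in WT Spg. In KO Spc 3159, 3009, 3172 and 3173 copies had a read, against 408, 373, 1181 and 378 in WT Spc, where 1181 is again replicate 3. Only 34 of the 3304 copies were listed at 0 in all 14 libraries. The median copy had a mean of 0.162 TPM in KO Spg and 0.997 TPM in KO Spc and was listed at 0 in both WT groups. A mean of 1 TPM or more was found for 361 copies in KO Spg, 7 in WT Spg, 1650 in KO Spc and 5 in WT Spc.

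Every KO library exceeded every WT library for 1916 of the 3304 copies in Spg, or 58.0%, while 3.91% of all TE copies above 0 in that table did so. In Spc this held for 2738 copies, or 82.9%, against 6.03% of all TE copies. The reverse, with every KO library below every WT library, was seen for 4 copies in Spg and 2 in Spc, against 1.57% and 2.39% of all TE copies. The remaining copies overlapped between genotypes (1207 in Spg and 519 in Spc) or were at 0 in all libraries of the stage (177 and 45).

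The copies were next tested singly, with the limit that near-identical copies share reads, so that the value of 1 copy is less certain than the sum. With limma on log2(TPM + 0.1) and a mean of at least 0.5 TPM required, 368 long L1Md_A copies entered the Spg test, and since WT values were near 0 they entered through KO. None of the 368 was called at an adjusted p under 0.01, where 0.00911% of all 252388 TE copies tested were called in either direction. At an unadjusted p under 0.05 the count was 196, or 53.3%, all higher in KO, where 3.36% of all TE copies tested were higher at that p. The quasi-likelihood test of edgeR on the whole reads recovered from the TPM values called 787 of 885 copies tested, all higher in KO, where it called 13.5% of all copies tested as higher.

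In Spc limma called 1355 of the 1671 long L1Md_A copies that passed the filter, all higher in KO, where 7.17% of all TE copies tested were called higher. The test by edgeR called 1918 of 1945 as higher, against 40.6% of all copies tested, and 2 as lower, against 26.5%. A filter on KO-driven levels makes these counts a description of the copies with enough reads and not of all 3304. With 1 library left out limma called 807 of 1764 without WT replicate 1 and 823 of 1765 without WT replicate 4, the lowest counts, and 1608 of 1680 without KO replicate 2, the highest, where 6.59%, 6.77% and 13.99% of all copies were called in either direction. It called 719 with a pseudocount of 1, 354 with the replicate block and 407 of 1596 with the closely alike replicates 1 and 4 averaged, where 7.62%, 3.97% and 4.77% of all copies were called in either direction.

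Whether the KO effect differed between the stages was tested copy by copy. Of 1356 long L1Md_A copies tested by limma none passed, where 0.00356% of all TE copies were called in either direction, and 247, or 18.2%, had an unadjusted p under 0.05, all with the larger KO effect in Spc, a direction that 10.4% of all TE copies tested showed at that p. The 18.2% fell to 4.42% with the replicate block and 2.92% with replicates 1 and 4 averaged, below the 10.4% and 8.32% of all copies. With 1 library left out it was 5.81% (without KO Spc replicate 4) to 54.7% (without KO Spc replicate 2). With edgeR 2 of 2174 passed, both with the larger effect in Spc, against 0.0225% of all copies tested in that direction. With a mean of at least 10 reads in place of the TPM filter, chosen after seeing the data, limma called 272 of 2073, all with the larger effect in Spc, beside 2.45% of all copies in that direction, and 90.3% had an unadjusted p under 0.05 in that direction, beside 35.3% of all copies, so that the count depended on the filter. These 2, named after their values were seen, were L1Md_A_dup13842 (chr14:18487741-18493128, plus strand, intergenic) and L1Md_A_dup6642 (chr7:107471213-107476821, plus strand, in an intron of Syt9 in its sense direction). L1Md_A_dup6642 rose to 6.28, 2.64, 5.54 and 8.43 TPM in KO Spc with 0 in the 4 WT Spc libraries, beside 1.03, 0.670 and 0.689 TPM in KO and 0.121, 0.281 and 0.0581 TPM in WT Spg (edgeR, adjusted p of the difference between stages 0.00948).

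The copies with the highest KO level in Spc mostly lay between genes, as did 75.4% of all long copies. The 10 that led among those called were L1Md_A_dup16433, L1Md_A_dup3684, L1Md_A_dup12914, L1Md_A_dup2371, L1Md_A_dup3779, L1Md_A_dup184, L1Md_A_dup14485, L1Md_A_dup8457, L1Md_A_dup1487 and L1Md_A_dup9671, at means of 30.6 down to 19.4 TPM. Of these 9 lay between genes, and L1Md_A_dup14485 lay antisense in an intron of Fgf14, which encodes a fibroblast growth factor homologous factor of neurons. L1Md_A_dup8457 and L1Md_A_dup9671 were on the X chromosome. Their log2 fold changes on the log2(TPM + 0.1) scale ran from 6.63 to 7.95 with adjusted p from 0.000178 to 0.000912 in limma.

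The highest of all was L1Md_A_dup16433 (chr18:64048663-64054938, plus strand), 25827 bp from the nearest gene. It stood at 39.0, 14.4, 24.3 and 44.7 TPM in KO Spc and at 0, 0, 0.0656 and 0 TPM in WT Spc (limma log2 fold change 7.95 with SE 0.77, adjusted p = 0.000178). It was also the highest in KO Spg, with 11.04, 5.53 and 4.27 TPM against 0, 0 and 0.0865 TPM in WT (limma adjusted p = 0.536, edgeR adjusted p = 0.00026). The groups did not overlap at either stage.

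L1Md_A_dup12914 (chr12:63119284-63125469, plus strand, intergenic) is an example of a copy listed at 0 in all 7 WT libraries. It reached 30.1, 10.96, 24.0 and 33.7 TPM in KO Spc and 6.31, 3.94 and 3.50 TPM in KO Spg. L1Md_A_dup3684 (chr4:39049789-39055151, plus strand, intergenic) differed from the others in its WT Spg level. It stood at 1.48, 0.882 and 0.283 TPM in WT Spg and 4.30, 4.58 and 2.91 TPM in KO Spg, and at 33.5, 11.5, 22.1 and 37.7 TPM in KO Spc against 0, 0.0345, 1.02 and 0.0448 TPM in WT Spc. It was the only one of the 10 not called by edgeR in Spg (adjusted p = 0.0288).

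The L1Md_A copy L1Md_A_dup12039 (chr10:110008982-110015605, minus strand) was the highest in KO Spg among those inside a gene in its sense direction, in an intron of Nav3, a cytoskeletal regulator of neurons, and was named after its values were seen. It stood at 6.18, 4.68 and 3.67 TPM in KO Spg and 0, 0 and 0.0164 TPM in WT Spg, and at 18.4, 9.65, 15.2 and 22.5 TPM in KO Spc with 0 in the 4 WT Spc libraries. The genotypes did not overlap at either stage.

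The same copies stood high in both KO stages. Across the 3304 copies the KO Spg and KO Spc means correlated with Pearson r = 0.93 on the log2(TPM + 0.1) scale and Spearman rho = 0.935, and 80 of the 100 highest copies were shared. Pairs of KO libraries within a stage correlated with r of 0.799 to 0.856 in Spg and 0.918 to 0.961 in Spc. The ranking in KO was only weakly seen in WT, with rho of 0.275 in Spg and 0.248 in Spc. Read sharing between near-identical copies and copy length enter each of these correlations, which are given across copies and without a test.

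**Figure D2:**
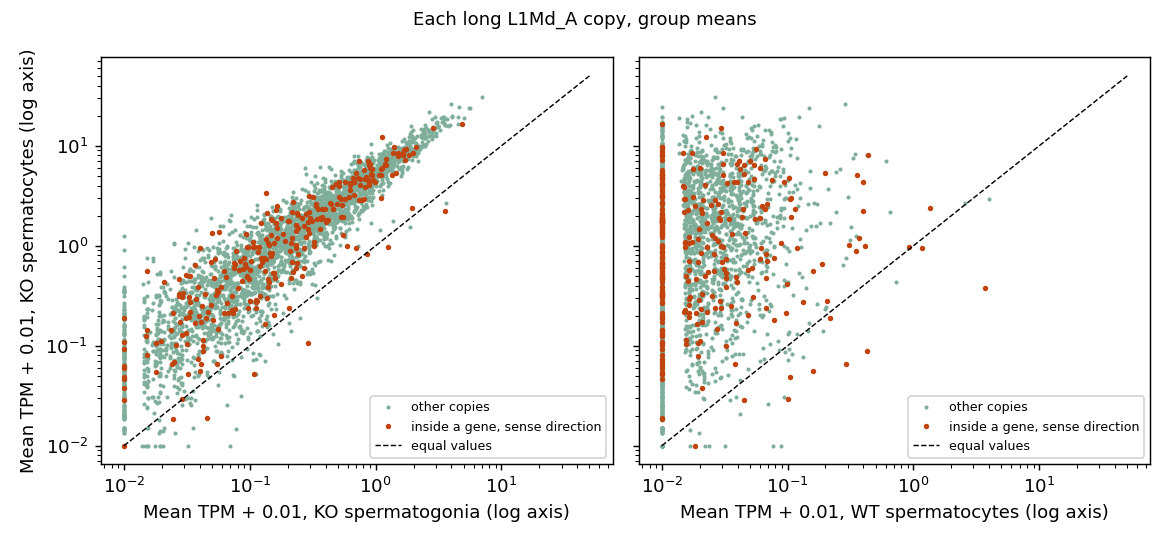
Mean TPM + 0.01 of each long L1Md_A copy (1 point per copy, log axes) in KO Spc against KO Spg on the left and against WT Spc on the right, with copies inside a gene in its sense direction in orange and equal values as a dashed line. KO Spc and KO Spg values follow each other (Spearman rho = 0.935), while most copies sit far above the line against WT Spc and a few sense copies lie below it.

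Expression in KO drew on many copies and that in WT on few. Ranked by group mean, 375 copies gave 50% of the summed TPM in KO Spg and 413 in KO Spc, against 80 in WT Spg and 107 in WT Spc. The 10 highest copies gave 3.74% and 3.12% in KO Spg and Spc, and 29.99% and 24.9% in WT Spg and Spc. Without WT Spc replicate 3 the WT Spc values were 46 copies and 33.2%. The long copies held 41860 to 89521 reads per library in KO Spg and 200329 to 597771 in KO Spc, but 1680 to 2954 in WT Spg and 1141 to 5509 in WT Spc, and the part of this depth in the concentration was not tested.

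**Figure D3:**
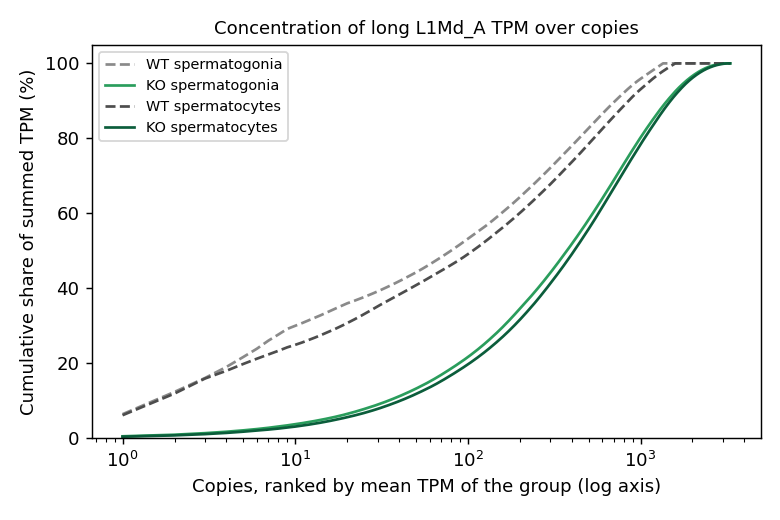
Cumulative share (%) of the summed TPM against the number of long L1Md_A copies, ranked by the mean TPM of each group (log axis). The WT curves (dashed) reach 50% at 80 and 107 copies and the KO curves (solid) at 375 and 413 copies.

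Where the copies lay relative to genes differed between the WT and KO transcripts. Of the 3304 copies 2490 were intergenic, 754 lay in introns and 60 touched an annotated exon, and 289, or 8.75%, lay inside a gene in its sense direction. These sense copies gave 25.3%, 30.5% and 36.3% of the summed TPM in WT Spg, but 7.99%, 8.39% and 8.43% in KO Spg. In Spc they gave 22.3% to 29.0% in WT and 7.78% to 8.04% in KO. The genotypes did not overlap at either stage. The differences of KO minus WT were -22.5 percentage points in Spg (two-sided exact permutation test, p = 0.10, adjusted over 9 tests of shares 0.129) and -18.1 percentage points in Spc (exact permutation p = 0.0286, adjusted 0.0857), which are the smallest p-values these designs allow.

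In absolute TPM both kinds of copies were higher in KO. Sense copies summed to 109 ± 40.4 TPM in KO and 16.7 ± 4.05 in WT Spg, and to 578 ± 234 in KO and 15.97 ± 8.42 in WT Spc (SD, n = 3 or 4). All other copies summed to 1217 ± 492.8 and 37.2 ± 3.41 TPM in Spg and to 6793 ± 2802 and 48.4 ± 33.9 TPM in Spc. Between KO Spc and KO Spg the sense share differed by -0.395 percentage points (two-sided exact permutation test, p = 0.114).

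The copies with the highest WT level mostly touched or lay inside genes. In WT Spg they were L1Md_A_dup15025 (in an intron of Smc1b, a meiotic cohesin subunit, sense), L1Md_A_dup2463 (touching an exon of Gm5845), L1Md_A_dup6750 (in an intron of the calcium uptake regulator Micu3, sense), L1Md_A_dup15709 (intergenic) and L1Md_A_dup1328 (in an intron of Hacd1, an enzyme of very long chain fatty acid synthesis, sense). All 5 overlapped between the genotypes in Spg. L1Md_A_dup15025 had 3.36, 4.30 and 2.93 TPM in KO and 1.74, 4.02 and 4.63 TPM in WT Spg, and L1Md_A_dup2463 had 4.00, 2.60 and 4.21 TPM in KO and 4.30, 2.78 and 2.54 TPM in WT Spg. Their limma log2 fold changes were 0.12 (SE 1.18) and 0.17 (SE 1.17), with errors too wide to show that the genotypes were alike. In Spc L1Md_A_dup15025 stood at 1.53 to 2.94 TPM in KO and 0.0660 to 1.06 TPM in WT, without overlap.

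In WT Spc the highest were L1Md_A_dup11908 (240 bp from Gm46191), L1Md_A_dup1588 (in an intron of 4932414N04Rik, sense), L1Md_A_dup2463, L1Md_A_dup6750 and L1Md_A_dup11904 (in an intron of Pwp1, sense). None of the 5 was called by limma in the main fit, and edgeR called L1Md_A_dup1588. Among all long copies limma called 1 as lower in KO with a mean TPM of at least 2, beside 8382 of 84276 TE copies tested. At an adjusted p under 0.05 it also called 1 as lower, beside 14947 of 241893. L1Md_A_dup11908 stood at 3.34, 1.38, 2.60 and 4.41 TPM in KO and 4.11, 2.75, 3.72 and 5.25 TPM in WT Spc, overlapping between genotypes. L1Md_A_dup1588 (chr2:68698277-68703575, plus strand) went the other way, with 0.589, 0.285, 0.278 and 0.323 TPM in KO and 3.69, 3.63, 4.04 and 3.53 TPM in WT Spc (limma log2 fold change -3.07 with SE 0.75, adjusted p = 0.0150, and edgeR adjusted p = 5.12e-06). Its host gene 4932414N04Rik had 1.02 CPM in KO and 147 CPM in WT Spc. The other copy that edgeR called lower in KO Spc was L1Md_A_dup1480, in an intron of Gm13490 in its sense direction, at 0.0319 to 0.0786 TPM in KO and 0.204 to 0.379 TPM in WT.

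The sex chromosomes carried 336 of the long copies on X and 172 on Y. Copies on X, 10.2% of all, gave 8.37% to 8.72% of the summed TPM in KO Spg and 8.02% to 8.81% in KO Spc, but 4.80% to 6.68% in WT Spg and 2.83% to 4.96% in WT Spc. KO and WT did not overlap at either stage (KO minus WT 2.73 percentage points in Spg, exact permutation p = 0.10, adjusted 0.129, and 4.67 in Spc, p = 0.0286, adjusted 0.0857). The X share of KO Spc and KO Spg differed by -0.168 percentage points (two-sided exact permutation test, p = 0.514). The X chromosome is silenced as part of the sex body in normal pachytene spermatocytes.

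Per copy, the X level relative to autosomes was 0.775 to 0.809 in KO Spg and 0.737 to 0.820 in KO Spc, against 0.423 to 0.599 in WT Spg and 0.243 to 0.440 in WT Spc. Copies on Y were lower, at 0.319 to 0.368 of the autosomal level over the 7 KO libraries. On autosomes the mean per copy in KO Spc ran from 2.08 TPM on chromosome 1 to 2.99 TPM on chromosome 4, and the X mean was 1.83 TPM. The ratio of KO to WT was at least 11.5 in Spg and 49.6 in Spc on every chromosome.

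**Figure D4:**
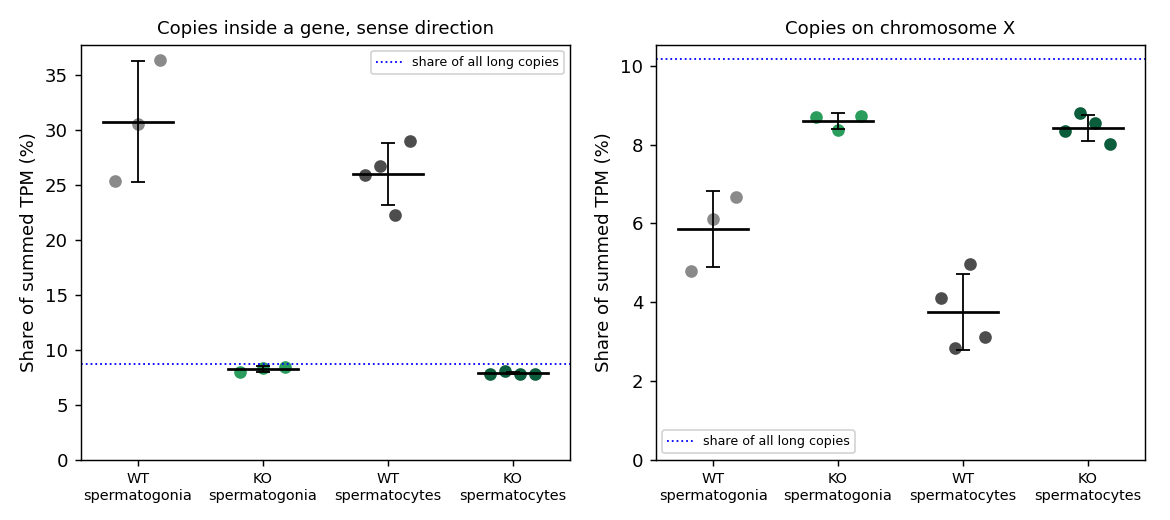
Share (%) of the summed TPM of long L1Md_A copies that came from copies inside a gene in its sense direction (left) and from copies on chromosome X (right), per library (points) with mean and SD (bars) and the share among the 3304 copies as a dotted line. KO values lie at 7.78% to 8.43% (sense) and 8.02% to 8.81% (X), close below the dotted lines at 8.75% and 10.2%, while WT values lie far above on the left and below on the right.

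Longer copies were higher in KO but not in WT. TPM is a level per length, but reads shared among near-identical copies also enter it, and their part in this difference was not tested. The mean per copy was 0.232 TPM from 5000 to below 5500 bp (1142 copies) and 1.39 TPM at 7000 bp and more (110 copies) in KO Spg, and 1.26 and 7.11 TPM in KO Spc. In WT the same classes had 0.0186 and 0.0116 TPM in Spg and 0.0235 and 0.0111 TPM in Spc. The longest class exceeded the shortest in each of the 7 KO libraries, 5.31-fold to 6.67-fold, and in none of the 7 WT libraries, where the ratio was 0.0962 to 0.913.

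Between these ends the order was not steady. Copies from 5500 to below 6000 bp (n = 522) had means of 0.542 TPM in KO Spg and 3.20 TPM in KO Spc, above those from 6000 to below 6500 bp (n = 1074) with 0.300 and 1.60 TPM. Copies from 6500 to below 7000 bp (n = 456) had 0.663 and 3.86 TPM. Copies of at least 6000 bp, 49.6% of all, gave 58.8% ± 0.601 of the summed TPM in KO and 50.1% ± 2.80 in WT Spg (SD, exact permutation p = 0.10, adjusted 0.129) and 57.9% ± 0.430 and 45.0% ± 5.53 in Spc (exact permutation p = 0.0286, adjusted 0.0857). At the length limit itself, copies from 4900 to below 5000 bp (66, left out) and from 5000 to below 5100 bp (77, kept) had 0.714 and 0.619 TPM in KO Spc.

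**Figure D5:**
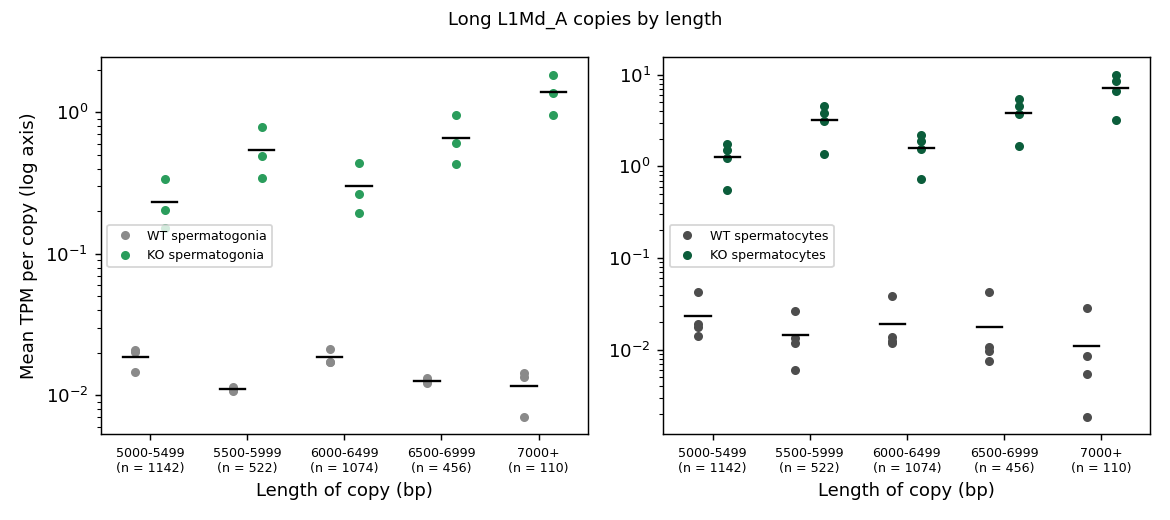
Mean TPM per copy (log axis) of long L1Md_A copies in 5 length classes, in Spg (left) and Spc (right), with 1 point per library, bars at the group means and the number of copies under each class. KO points are highest at 7000 bp and more, at 0.964 to 1.85 TPM in Spg and 3.20 to 10.1 TPM in Spc, and WT points show no such rise.

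The ratio of KO to WT was smaller over all short L1Md_A copies, which start at 11 bp, than over the long ones. The 13540 copies under 5000 bp had mean levels of 0.279 TPM in KO and 0.126 TPM in WT Spg, a ratio of 2.22, and of 1.08 and 0.102 TPM in Spc, a ratio of 10.6. Those from 1000 to below 5000 bp had ratios of 8.69 and 25.5, and those from 4900 to below 5000 bp, just outside the rule, 18.7 and 96.3. The ratios of all long copies were 24.6 and 114, and those of copies from 5000 to below 5100 bp 34.3 and 76.0. Long copies thus gave 2.02% to 6.21% of the TPM of all L1Md_A copies in WT libraries, and 21.7% to 27.5% in KO Spg and 28.9% to 34.8% in KO Spc.

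L1Md_T is the larger young subfamily, with 5059 long copies. The ratio of KO to WT in mean TPM per copy was 23.4 in Spg and 56.3 in Spc for long L1Md_T, beside 24.6 and 114 for long L1Md_A, and 44.8 and 188 for the 111 long copies of L1Md_Gf. The log2 ratio of summed TPM of long L1Md_A to long L1Md_T was -0.32 ± 0.15 in KO Spc and -1.45 ± 0.43 in WT Spc (SD, n = 4), higher in KO by 1.13 on the log2 scale or 2.19-fold (two-sided exact permutation test, p = 0.0286), and by 1.79 on the log2 scale with a length minimum of 6000 bp. In Spg it was -1.09 ± 0.32 in KO and -1.25 ± 0.46 in WT (SD, n = 3, exact permutation p = 0.50), and without WT replicate 1 the difference changed sign. Between KO Spc and KO Spg the ratio of L1Md_A to L1Md_T differed by 0.77 on the log2 scale, or 1.70-fold (two-sided exact permutation test, p = 0.0571, the smallest that 4 against 3 allow), with L1Md_A the more favoured in Spc.

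Genes that hold a long L1Md_A copy were then compared by edgeR's quasi-likelihood test on gene counts. In Spg 320 such genes were tested and 1 was called, where 0.0741% of all genes and TE subfamilies tested were called in either direction. With the replicate block 10 of 320 were called (6 higher and 4 lower) and by DESeq2's Wald test 34 of 366 (24 higher and 10 lower), beside 0.551% and 2.49% of all features. The gene called by edgeR was Pkhd1, which encodes fibrocystin of renal and biliary cilia. It held 2 long copies in sense and 2 in antisense direction. Pkhd1 stood at 11.02, 10.1 and 8.23 CPM in KO Spg (551, 479 and 387 counts) and at 0, 0.0485 and 0 CPM in WT Spg (0, 2 and 0 counts), with an adjusted p of 0.00352 in edgeR. The call was lost without KO replicate 2, KO replicate 3 or WT replicate 1, each of which left 0 genes called.

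In Spc 369 genes with a long copy were tested, of which 139 were called higher and 101 lower in KO. Among 144 genes with a sense copy 51 were higher and 38 lower, with a median log2 fold change of 0.49, and among 270 with an antisense copy 102 were higher and 80 lower, with a median of 0.82. Of all genes and TE subfamilies tested 27.4% were called higher and 30.1% lower, with a median of 0.11. Scaling by library totals moved the median of all to 0.79 and the calls over all from 6254 higher and 6870 lower to 8329 and 4951, and those of genes with a long copy to 168 and 86. With replicates 1 and 4 summed, 90 of 371 genes with a long copy were called higher and 90 lower. Among the 143 with a sense copy 27 were higher and 37 lower. Over all 23213 features 3571 were then called higher and 5303 lower.

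The genes with a sense copy and the smallest p in Spc were all lower in KO. They were Jhy, Gm45861, Spag16, 4932414N04Rik and Agbl4, of which Jhy and Spag16 serve motile cilia and Agbl4 encodes a tubulin deglutamylase. Agbl4 held 4 long sense copies that summed to 14.9 TPM in KO and 0.246 TPM in WT Spc, while the gene itself fell to 1.21, 0.592, 1.23 and 1.31 CPM in KO from 142, 69.5, 45.8 and 136 CPM in WT (edgeR adjusted p = 6.15e-06). The long sense copies of Jhy, Gm45861, Spag16 and Agbl4 had a higher mean TPM in KO while their host was lower, and only that of 4932414N04Rik was lower together with its host. The genes with an antisense copy and the smallest p were Slc16a7, Cep128, Immp2l, Cfap69 and Zpbp, all lower in KO as well, of which Cfap69 and Zpbp serve the sperm flagellum and acrosome. Cep128 fell to 15.3 to 18.4 CPM from 291 to 652 CPM (edgeR adjusted p = 2.73e-06). Spermatid markers were lower in the same KO libraries, at 0.121 to 4.66 against 32.6 to 860 CPM, and their part in the fall of these genes was not tested.

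The genes that silence L1 in the germline were listed by role, and all 20 could be tested. In Spg none was called by edgeR, where 0.0741% of all genes and TE subfamilies tested were called in either direction. The median log2 fold change of the list was -0.11 beside 0.02 over all features tested. The largest differences were those of the Tudor proteins Tdrd9 (177 ± 29.4 against 289 ± 82.2 CPM) and Tdrd1, with log2 fold changes of -0.72 and -0.74 (edgeR adjusted p = 0.345 and 0.422).

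In Spc 1 of 20 silencing genes was called higher and 7 lower in KO, where 27.4% of all genes and TE subfamilies were called higher and 30.1% lower. The 7 genes are 35% of the list, which is near that background. The list median was -0.56 beside 0.11 over all features tested. Scaled by library totals, the list gave 6 higher and 5 lower, near the 36.5% and 21.7% of all features. Higher was Tex15, which acts in piRNA-directed methylation, at 332 ± 39.0 CPM in KO and 58.6 ± 40.9 CPM in WT. Lower were the piRNA pathway genes Mael (173 ± 40.2 against 1760 ± 483 CPM), Tdrd1 (84.9 ± 26.4 against 948 ± 337 CPM) and Tdrd9 (88.3 ± 25.6 against 503 ± 77.9 CPM). Also lower were the methylation cofactors Dnmt3l and Uhrf1 and the chromatin repressors Trim28 and Mphosph8, with log2 fold changes of -2.45, -0.78, -1.49 and -1.34. Under library totals the 6 called higher were Tex15, Dnmt3c, Tex19.1, Morc1, Setdb1 and Morc2a. Mael, Tdrd1, Tdrd9, Trim28 and Mphosph8 were called lower there too, while Dnmt3l had a log2 fold change of -1.83 and an adjusted p of 0.0202 and Uhrf1 a log2 fold change of -0.04 (edgeR, adjusted p = 0.868). The maintenance methyltransferase Dnmt1 stood at 227 ± 88.7 CPM in KO and 244 ± 47.9 CPM in WT Spc and was not called. Spermatid markers and, of the meiotic list, Spo11, Piwil1 and Ldhc were lower in these KO libraries, while Sycp1, Sycp3 and Hormad1 were not called. The part of these marker differences in the change of the silencing genes was not tested.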

How the data were processed

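The authors aligned the reads of 14 libraries to GRCm38 (GENCODE M25) with STAR 2.7.3a, keeping up to 100 alignments per read, after trimming with cutadapt 4.0 per the submitters' processing notes. TEtranscripts in multi mode gave the deposited raw counts per gene and TE subfamily, and TElocal the deposited TPM per TE copy, both made by the authors. Reads with many alignments were shared among the copies they match. Columns of the authors' own DESeq2 1.44.0 comparison (log2 fold changes and p-values) were not used. No column was without a sample (0 columns). The spermatogonia library of each genotype that the study left out for its RNA quality was not used here. Sums of TPM are over TE copies only.

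TPM times length came out as whole reads for 100% of values above 0 in every library (tolerance 0.01), which gave the reads used here. The main test of single copies was that of limma 3.58.1 (moderated, with trend) on log2(TPM + 0.1), for copies whose mean TPM reached 0.5, so that fold changes understate those of low copies. Genes were tested by the quasi-likelihood test of edgeR 4.0.16 with filterByExpr and TMM factors. Both were run in R 4.3.3 with Benjamini-Hochberg adjustment over all features tested, called at an adjusted p under 0.01. The difference between stages was fitted over all 14 libraries, each KO effect being a ratio within its own table. Sums, shares and ratios were set against each other by exact permutation, two-sided. The share of copies with whole open reading frames was not computed, since no genome of this build was used, so 9 tests of shares were adjusted together. Positions and genes came from GENCODE M21 on GRCm38, which held 99.7% and 99.6% of gene identifiers.

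Named copies were the 10 called copies with the highest KO mean and no overlap per stage, the 5 with the largest difference called between stages and the 5 with the highest WT mean per stage. Named genes were the 5 sense and 5 antisense hosts per stage with the smallest p and the 20 silencing genes. Members and lists were chosen with earlier results of these data known. The main tests did not pair libraries by replicate number. The correlation of deviations was 0.00952 to 0.0747 between same-numbered KO and WT libraries and -0.092 to 0.056 between the others. With 3 or 4 libraries per group this cannot decide whether the libraries were paired. On simulated data, of 200 copies changed 16-fold limma recovered 12 for Spg and 119 for Spc among 222646 and 212530 copies, with 0 and 18 false calls, and edgeR 200 for each among 27179 and 29816 copies, with 1 and 0 false calls. Of 200 changed 4-fold limma recovered 0 for each among 222495 and 212546 copies, and edgeR 131 and 183 among 27102 and 29741 copies, with 3 and 2 false calls. Alternatives changed 1 choice at a time, with DESeq2 1.42.0 for genes, except that edgeR on reads also had its own filter on copies and the scaling by all counts its own pseudocount (0.02) and minimum (0.1), and those set after seeing the data are named in the closing section. Python 3.11.15, NumPy 2.4.6, SciPy 1.17.1, pandas 2.3.3 and matplotlib 3.10.9 were used for the rest.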

Additional observations from a re-analysis of the deposited data

Results flagged for a closer look

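In 61 groups of 4 values each the highest or lowest library was compared with its nearest neighbour relative to the range of the group (Dixon's criterion), and 12 groups had a library apart from the rest. Chance gives about 1 in 20 for independent groups of graded values, which these were not, since they share libraries and in 5 of the 12 (L1Md_A_dup16433, L1Md_A_dup3779, L1Md_A_dup184, L1Md_A_dup14485 and L1Md_A_dup4695 in WT Spc) the other 3 libraries were at 0, so that any read sets a library apart. WT Spc replicate 3 was the high library in 9 of the 12. It had a summed TPM of 127.5 for long L1Md_A copies, 1181 copies above 0 and 0.390% of TE reads on them, and the highest WT Spc value of L1Md_A_dup16433 (0.0656 TPM), L1Md_A_dup3684 (1.02 TPM), L1Md_A_dup3779 (0.0837 TPM), L1Md_A_dup184 (0.0415 TPM), L1Md_A_dup4695 (0.0152 TPM) and L1Md_A_dup12996 (0.245 TPM). WT Spc replicate 2 was apart for L1Md_A_dup14485 (0.0297 TPM, with 0 in the other libraries). Values under 0.1 TPM stand for very few reads. KO Spc replicate 2 had fewer copies above 0 than the others (3009), and KO Spc replicate 1 the highest value of L1Md_A_dup1588 (0.589 TPM). The ratio of KO to WT of the summed TPM without WT Spc replicate 3 is given in the report.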

How the results depend on the processing

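The direction of the summed TPM held under every alternative. In Spc the log2 ratio was 6.84 with the replicate number as a block (p = 0.125), 6.56 with replicates 1 and 4 averaged (p = 0.10) and 6.63 to 7.41 with 1 library left out (p = 0.0571), each p by exact permutation and the smallest its design allows. In Spg it was 4.26 to 4.85 with 1 library left out. The 0 copies called by limma in Spg became 787 of 885 by edgeR on reads and 804 of 1052 with a mean of at least 10 reads in place of the TPM filter (14.1% and 14.02% of all copies tested), the latter chosen after seeing the data, and stayed 0 with each library left out. In Spc the 1355 of 1671 became 719 of 1671 with a pseudocount of 1, 830 of 3259 without a filter, 614 of 617 with a mean TPM of at least 2, 354 of 1671 with the replicate block, 752 of 905 from 6000 bp, 407 of 1596 with replicates 1 and 4 averaged, 2275 of 2339 with at least 10 reads (where 7.62%, 2.695%, 21.4%, 3.97%, 11.2%, 4.77% and 60.9% of all TE copies tested were called) and 807 to 1608 with 1 library left out. For the difference between stages the 0 became 2 of 2174 by edgeR and 272 of 2073 with at least 10 reads (13.1%, all with the larger effect in Spc, against 2.45% of all copies in that direction), both added after seeing the data, and 0 with any library left out. The 1 host gene of 320 in Spg became 3 of 320 with DESeq2 size factors, 34 of 366 by DESeq2's Wald test, 13 of 469 without a filter, 8 of 320 at an adjusted p under 0.05, 10 of 320 with the replicate block (0.107%, 2.49%, 0.465%, 0.315% and 0.551% of all features) and 0 to 1 with 1 library left out, and the 240 in Spc became 180 to 311 (48.5% to 79.4% of hosts tested, beside 38.2% to 71.4% of all features), and 212 to 267 with 1 library left out. The log2 ratio of L1Md_A to L1Md_T in Spc was 1.02 with replicates 1 and 4 averaged (exact permutation p = 0.10), 1.02 to 1.34 with 1 library left out and 1.79 from 6000 bp. In Spg it reversed to -0.10 without WT replicate 1, was up to 0.35 with another library left out and 0.45 from 6000 bp. For these changes the cause was not tested, apart from fewer copies or libraries entering. Of 180 alternatives for the 10 named copies in Spc 179 kept the call, and L1Md_A_dup3684 lost it with replicates 1 and 4 averaged (adjusted p = 0.0113 in limma). The share from whole open reading frames and its alternatives were not run. Low WT counts limit single copies, and counting error is only a part of the error.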

Other observations

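The 4 copies at which every KO Spg library stood below every WT Spg library were named after their values were seen. L1Md_A_dup12996 (chr12:81351010-81357182, minus strand, 1678 bp from Gm20498) had 0.0957, 0.0948 and 0.0834 TPM in KO and 0.603, 0.373 and 0.193 TPM in WT Spg, and edgeR did not call it (adjusted p = 0.0806). L1Md_A_dup3124, antisense in an intron of the ankyrin gene Ank2, had 0, 0.0468 and 0.0721 TPM in KO and 0.158, 0.158 and 0.223 TPM in WT Spg. L1Md_A_dup13930 and L1Md_A_dup554 were intergenic and stayed at or below 0.193 and 0.0534 TPM in all Spg libraries.

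The order of the copies within WT libraries followed the KO order weakly. Over the 3304 copies the Spearman rho with the KO mean of the same stage was 0.169, 0.180 and 0.235 in the WT Spg libraries. In WT Spc it was 0.0677, 0.123, 0.241 and 0.0308, highest in replicate 3, which also held the most reads on long L1Md_A copies of any WT library.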
